A study of Homo sapiens with 6 samples.

Results

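The subject is a stretch of 3.5 Mb on the short arm of chromosome 6, in band 6p21, from 41 to 44.5 Mb of the hg19 genome, around the landmark genes CCND3 and VEGFA. Its members are the regions obtained by merging the overlapping or touching peaks of 2 deposited lists, ubiquitylated and total H2A.Z, whose midpoint falls in this interval. There were 500 such regions among 198179 in the genome. The stretch was chosen on the direction of the authors' differential calls, because a long series of regions higher in total H2A.Z lies in it. Counts of calls, fold changes, and the share of regions held by each list therefore describe the stretch and carry no test.

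The data came from chromatin immunoprecipitation and sequencing in HEK293T, an established human embryonic kidney line. Cells were co-transfected with plasmids for H2A.Z-1 that bears Flag and the biotin ligase BirA at its C-terminus, and for ubiquitin that bears an AviTag, the peptide BirA biotinylates, at its N-terminus (ratio 3 to 1), and were harvested after 48 hours. Every group shares these 2 constructs, and no untransfected group was analysed here. Streptavidin-agarose recovered ubiquitylated H2A.Z nucleosomes (2 samples), Flag M2-agarose recovered all tagged H2A.Z (2 samples) and an H3 antibody gave histone H3 (2 samples), after digestion with micrococcal nuclease. The model is limited to tagged histone made from a plasmid, and the 2 H2A.Z pull-downs used different reagents, so reagent and ubiquitylation cannot be told apart. The labels do not say whether replicates were separate cultures. The lists hold 1 value per peak or region for both replicates together, so no value per sample, no replicate spread and no sequencing depth can be given.

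The variant histone H2A.Z takes the place of H2A in nucleosomes, and chromatin remodellers exchange it in beside promoters and at enhancers. A part of it carries a single ubiquitin on its C-terminal tail, placed by the RING1 ligases of Polycomb complexes, and this form is known from facultative heterochromatin such as the inactive X chromosome. H2A.Z as a whole is best known from promoters rich in CpG, where it flanks the start site of transcription.

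The RefSeq gene table (GRCh38.p14) lists 50 protein-coding genes from CCND3 to VEGFA. They include CCND3 itself (cyclin D3, which drives entry into the cell cycle), SRF (serum response factor, a transcription factor), XPO5 (exportin 5, which carries microRNA precursors out of the nucleus), POLH (the DNA polymerase eta that copies past ultraviolet damage) and PRPH2 (peripherin 2, a structural protein of photoreceptors). This table served for gene order alone, since its build differs from that of the peaks and no peak could be placed on a promoter. The promoter table matched 43 of the 50 genes, with 58 start sites. VEGFA was not among those matched, and overlapping entries such as CNPY3, GNMT and CNPY3-GNMT were counted separately. Genes of the stretch before CCND3 or beyond VEGFA were left out, so these starts cover only a part of it. The 250 bases upstream of these starts held a median of 16 CpG (quartiles 10.2 and 23), against 11 (quartiles 3 and 23) over 35116 starts of all genes. At least 10 CpG were present at 44 of the 58 (75.9%), and at 52.2% of all starts. The latter belong to 27305 genes that were not selected here as protein-coding, so the 2 sets may differ in kind of gene. Neither difference was tested. POLH (38 CpG) and XPO5 (34) were among the richest, whereas SLC22A7 (1), an organic anion transporter, and GUCA1A (1), a regulator of guanylate cyclase in photoreceptors, were among the poorest.

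The 250 bases upstream of each of the 3 starts of CCND3 and of the single start of PRPH2 make this range of promoters visible. CCND3 has 26, 26 and 3 CpG at its starts and PRPH2 has 2. All are from RefSeq, GRCh38.p14, minus strand, at chr6:42048689-42048938, chr6:41941809-41942058 and chr6:41939206-41939455 for CCND3 and chr6:42722598-42722847 for PRPH2. These positions are not comparable with the hg19 positions used in the rest of the text. Capitals mark the CpG, and each sequence runs 5′ to 3′ towards the start.
CCND3 start 1: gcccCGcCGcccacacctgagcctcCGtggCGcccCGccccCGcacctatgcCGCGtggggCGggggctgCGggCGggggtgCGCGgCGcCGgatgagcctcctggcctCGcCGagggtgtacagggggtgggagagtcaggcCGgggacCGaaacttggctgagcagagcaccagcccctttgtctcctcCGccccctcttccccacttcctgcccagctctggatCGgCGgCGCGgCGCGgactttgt
CCND3 start 2: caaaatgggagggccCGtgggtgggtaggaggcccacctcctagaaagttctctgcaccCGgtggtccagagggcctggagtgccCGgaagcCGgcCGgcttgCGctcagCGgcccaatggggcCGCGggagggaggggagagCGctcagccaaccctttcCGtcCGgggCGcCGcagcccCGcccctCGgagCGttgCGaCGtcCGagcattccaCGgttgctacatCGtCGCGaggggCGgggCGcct
CCND3 start 3: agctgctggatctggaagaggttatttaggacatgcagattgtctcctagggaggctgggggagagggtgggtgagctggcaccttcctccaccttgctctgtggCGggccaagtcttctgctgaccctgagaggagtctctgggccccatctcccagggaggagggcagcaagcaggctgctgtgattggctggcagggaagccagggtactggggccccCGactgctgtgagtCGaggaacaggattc
PRPH2: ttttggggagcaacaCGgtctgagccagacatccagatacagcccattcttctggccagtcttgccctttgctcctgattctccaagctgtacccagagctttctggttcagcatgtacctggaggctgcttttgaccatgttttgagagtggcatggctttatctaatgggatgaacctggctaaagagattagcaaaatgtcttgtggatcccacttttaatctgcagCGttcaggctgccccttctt

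More of the stretch was occupied by total than by ubiquitylated H2A.Z peaks. It held 406 total and 316 ubiquitylated peaks, 1.28 total peaks for each ubiquitylated one, where the complete lists are of nearly equal length (ratio 1.00). An excess of total peaks was not particular to the stretch. The ratio was 1.4 in the equally long part to its right and 1.23 in that to its left. It was 1.35 in the major histocompatibility complex and 1.13 over the rest of chromosome 6, these parts included. By bases, the total peaks with a midpoint in the stretch covered 155.1 kb and the ubiquitylated ones 114.8 kb. The peaks were of ordinary quality for their lists. Median IDR, the irreproducible discovery rate that the authors give each peak (lower means a better match of the replicates; the files do not say if the rate is local or global), was 0.00317 for the total peaks (0.00335 in the complete list) and 0.00131 for the ubiquitylated ones (0.00137). Median peak width was 317 bp for total (310 bp in the complete list) and 292 bp for ubiquitylated peaks (316 bp).

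Of the 500 members, 210 (42.0%) held peaks of both lists, 193 (38.6%) held total peaks alone and 97 (19.4%) ubiquitylated peaks alone. Over all merged regions these shares were 41.9%, 29.2% and 28.9%. The share common to both forms was thus that of the genome, and the difference lay in which list supplied the remaining regions. Other parts of chromosome 6 also had more regions with total peaks alone than the genome. Their share was 41.7% to the right of the stretch, 41.4% to its left and 44.1% in the major histocompatibility complex. Over the rest of chromosome 6 it was 33.7%. Regions with ubiquitylated peaks alone made up 15.8%, 28.4%, 24.2% and 24.9% of these parts, in the same order. Members were 140 to 1771 bp wide with a median of 312.5 bp (313 bp over all merged regions). Those with both peaks were widest (median 424.5 bp), followed by members with total peaks alone (263 bp) and with ubiquitylated peaks alone (227 bp). Genome-wide the last 2 classes stood in the other order, 251 bp for total and 276 bp for ubiquitylated peaks alone.

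In the authors' deposited table, 102 members were higher in total H2A.Z (20.4%, Wilson 95% interval 17.1 to 24.2%) and 11 were higher in ubiquitylated H2A.Z (2.20%, interval 1.23 to 3.90%). The background over all merged regions was 12.1% and 9.39%. The intervals cover counting error only and take regions as independent, which neighbours are not. The other 387 members (77.4%, 78.5% of all regions) were in neither differential list. Ubiquitylated H2A.Z was therefore on the higher side at 9.73% of the 113 differential members, against 43.7% of all differential regions. With changes of at least 2-fold in the authors' deposited table, 28 members were higher in total H2A.Z (5.60%, background 2.39%) and 1 in ubiquitylated H2A.Z (0.200%, background 1.47%). Because the stretch was chosen on this contrast, nothing further is read from these shares.

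The authors' deposited table expresses each difference as a log2 fold change of ubiquitylated over total H2A.Z. For the 102 members its median was -0.83 (quartiles -1.02 and -0.64, range -1.97 to -0.39) in the authors' deposited table, where all 23960 regions of that direction had -0.76. Of the 102, 66 (64.7%) had an FDR of at most 0.01 in the authors' deposited table, and 59.6% of all regions of that direction did. In the authors' deposited table the 11 members of the other direction ranged from 0.41 to 1.28 with a median of 0.65, and 3 of them (27.3%, 56.0% of all such regions) had an FDR of at most 0.01.

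**Figure D1:**
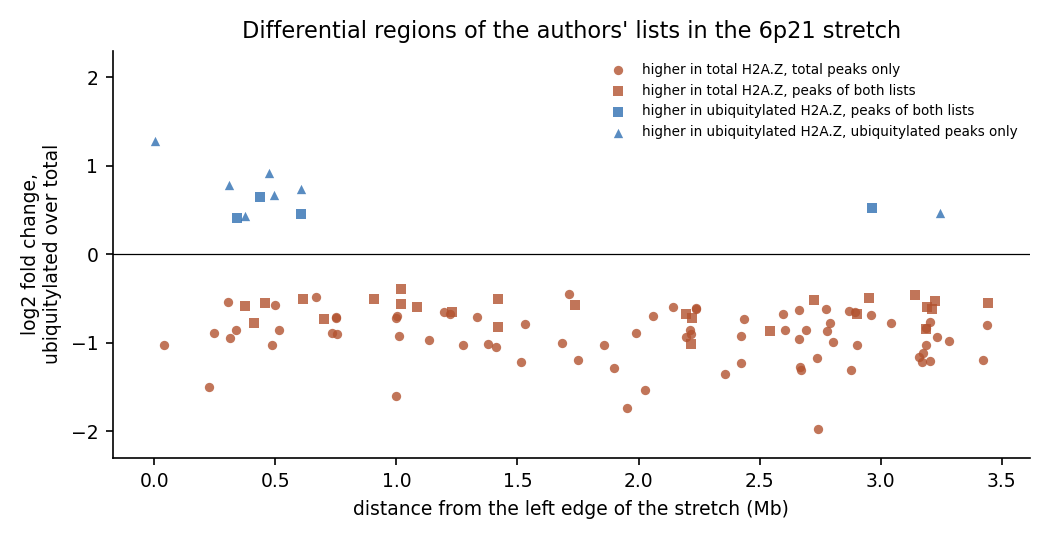
Log2 fold change, ubiquitylated over total, from the authors' deposited table (y axis) for the 113 differential members against distance from the left edge of the stretch in Mb (x axis); colour gives the direction and marker shape the peaks a member holds. Points above 0 number 11, of which 9 lie in the leftmost 1 Mb, and points below 0 number 102 and run along the whole stretch.

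The direction varied with which peaks a member held. Peaks and calls come from the same libraries, so this link is largely built in and is no separate result. Over all merged regions, 48 of 57791 regions with total peaks alone were higher in ubiquitylated H2A.Z. In the reverse case, 73 of 57268 regions with ubiquitylated peaks alone were higher in total H2A.Z. Of the 193 members with total peaks alone, 76 (39.4%) were higher in total H2A.Z, compared with 30.5% of such regions in the genome. Of the 97 with ubiquitylated peaks alone, 7 (7.22%) were higher in ubiquitylated H2A.Z, compared with 23.8% in the genome. Of the 210 members that held both kinds of peak, total H2A.Z was higher at 26 (12.4%) and ubiquitylated H2A.Z at 4 (1.90%), compared with 7.52% and 5.97% in the genome. The remaining 90 of the 97 were in neither differential list. They were narrow, with a median of 221 bp, while the 7 that were called had a median of 529 bp. In the genome these medians stood in the same order, 250 bp and 415 bp.

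**Figure D2:**
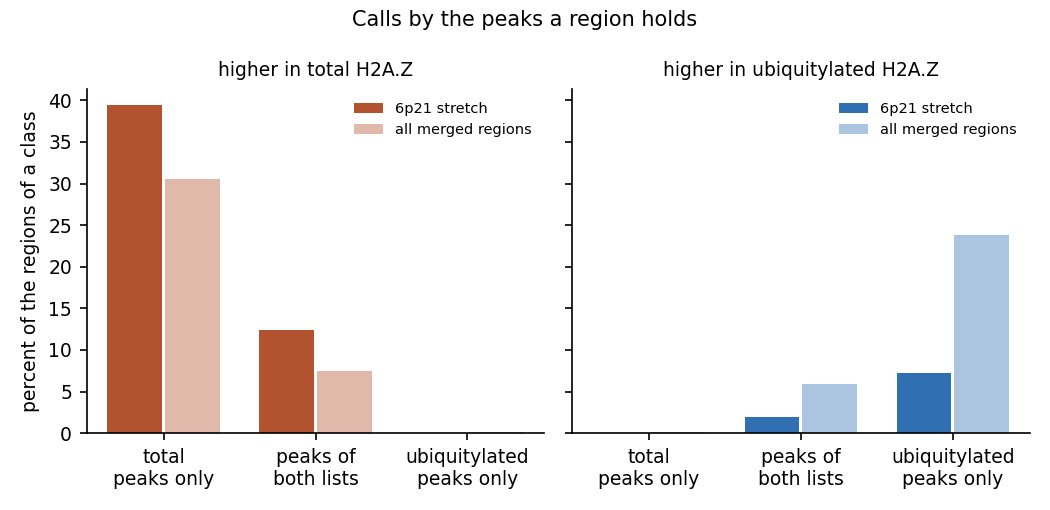
Percent of regions of each class (y axis) that were higher in total (left) or ubiquitylated H2A.Z (right), by the peaks a region holds (x axis), for the 6p21 stretch and all merged regions. With total peaks alone, 39.4% of members were higher in total H2A.Z against 30.5% in the genome, and with ubiquitylated peaks alone 7.22% were higher in ubiquitylated H2A.Z against 23.8%.

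The member with the lowest FDR was chr6:43670619-43671149, 531 bp wide and held by a total peak alone; the authors' deposited table gives it -1.31 on the log2 scale with an FDR of 3.1e-08. Next came chr6:43027578-43027983 with -1.53 (FDR 5.8e-08) in the authors' deposited table. The following 5, at chr6:42515602-42516069, chr6:44168924-44169415, chr6:41513038-41513939, chr6:43423473-43423820 and chr6:44232604-44233067, had -1.22, -1.22, -0.85, -1.23 and -0.94 by the authors' deposited table. These 7 all lacked a ubiquitylated peak and were spread over the stretch from its second to its last tile of 0.5 Mb. The largest change, -1.97 (FDR 2.3e-05) in the authors' deposited table, was at the much narrower chr6:43740082-43740253 (172 bp). Narrow regions also gave the next changes in size, -1.74 at chr6:42951841-42952049 and -1.60 at chr6:41996516-41996724 in the authors' deposited table, both 209 bp wide. At the other end stood chr6:42015857-42017534, a region of 1678 bp with 2 ubiquitylated peaks and 1 total peak, with -0.39 (FDR 0.009) in the authors' deposited table.

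In 26 members, peaks of both lists were present and total H2A.Z was still higher. Each call covers the whole merged region, not only the part under both peaks. In the 23 of them with 1 peak of each list, a median of 60.8% of the region lay in both peaks. The median was 81.8% in the 171 such members in neither differential list (69.2% and 86.0% in the genome). The lowest FDR among these 26 belonged to chr6:43543049-43543733 (log2 fold change -0.87, FDR 1.1e-05 in the authors' deposited table). Its total peak, with an IDR of 2.15e-05, was among the 5 most repeatable total peaks of the stretch, whereas its ubiquitylated peak, at 0.0434, came close to the limit of 0.05. At chr6:44213376-44214722 both peaks were repeatable, with an IDR of 1.81e-05 for total and 0.000138 for ubiquitylated H2A.Z, and the log2 fold change was -0.62 (FDR 4.8e-05) in the authors' deposited table. There the total peak was 1347 bp wide and the ubiquitylated peak 719 bp. An adjoining pair, chr6:42419361-42419809 and chr6:42420081-42421851, had -0.82 and -0.51 in the authors' deposited table, and the latter, at 1771 bp, was the widest member of all. Changes were smaller where peaks of both lists were present, as they were over all merged regions. In the authors' deposited table the median was -0.58 for these 26 members and -0.90 for the 76 with total peaks alone. Over all merged regions the authors' deposited table gave -0.56 and -0.84. Of the 28 members changed at least 2-fold towards total H2A.Z, 1 held both peaks, and 47 of the 4738 such regions in the genome did.

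Peak widths in members with peaks of both lists leaned the same way even where no difference was called. In 198 members with exactly 1 peak of each list, the total peak was the wider in 127 (64.1%) and the ubiquitylated peak in 70 (35.4%), against 54.6% and 44.6% of 77834 such regions in the genome. Median widths were 362 bp for the total and 306.5 bp for the ubiquitylated peak (355 and 338 bp in the genome). Among the 171 members of this kind in neither differential list, the total peak was wider in 104 (60.8%, genome 53.9%). The total peak was wider in all 23 members higher in total H2A.Z and narrower in all 4 higher in ubiquitylated H2A.Z, and in the genome this held for 97.4% and 92.1% of such regions. Widths come from the same libraries as the calls and are no separate support for them. Their centres lay a median of 27.5 bp apart (19.5 bp in the genome). An extreme case was chr6:41908053-41909508, where a total peak of 1456 bp met a ubiquitylated peak of 304 bp with centres 560 bp apart. That ubiquitylated peak had an IDR of 4.27e-06, among the 5 lowest of the stretch, and the log2 value of the region was -0.50 (FDR 0.0036) in the authors' deposited table.

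**Figure D3:**
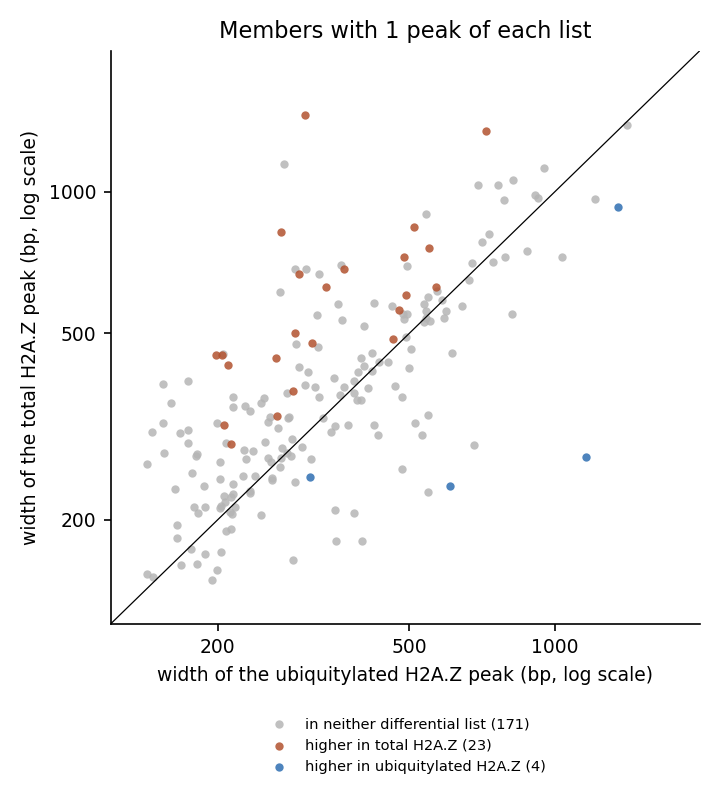
Width of the total H2A.Z peak (y axis, bp, log scale) against that of the ubiquitylated peak (x axis, bp, log scale) in the 198 members with 1 peak of each list; the line marks equal widths. The 23 members higher in total H2A.Z all lie above the line and the 4 higher in ubiquitylated H2A.Z all lie below it.

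The 11 members higher in ubiquitylated H2A.Z were concentrated at the left. The first of them, chr6:41000647-41000917, is also the first member inside the left edge, and it had the largest change of the 11, 1.28 (FDR 0.00032) in the authors' deposited table. Just outside that edge, chr6:40995950-40996525 had more total H2A.Z, with -0.54 and an FDR of 0.004 in the authors' deposited table. Of the remaining 10, chr6:41472934-41473462 changed by 0.92 (FDR 0.00035) in the authors' deposited table although its peak, with an IDR of 0.0401, was near the limit of its list. Those at chr6:41310066-41310382, chr6:41492224-41492567 and chr6:41606231-41606828 had 0.78, 0.67 and 0.74 in the authors' deposited table, and those at chr6:41374548-41375272 and chr6:44242978-44243731 had 0.43 and 0.47. None of these 7 held a total peak. The 4 that did were chr6:41341148-41342499 (log2 fold change 0.41), chr6:41434181-41434491 (0.65), chr6:41604619-41605788 (0.46) and chr6:43965671-43966285 (0.52 in the authors' deposited table). At chr6:41604619-41605788 the ubiquitylated peak spanned 1163 bp and the total peak 272 bp.

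Along the stretch the 2 directions alternated at first and then gave way to a single one. The part from chr6:41000647 to chr6:41606828 spanned 0.606 Mb with 96 members. Of these, 12 (12.5%) had more total and 9 (9.38%) more ubiquitylated H2A.Z, beside 12.1% and 9.39% in the genome. In the following 2.89 Mb with 404 members, 90 (22.3%) had more total and 2 (0.495%) more ubiquitylated H2A.Z. The boundary was drawn after the values were seen, at the ninth member higher in ubiquitylated H2A.Z. Where this boundary was put partly set the shares on both sides. The ratio of total to ubiquitylated peaks was 1.14 before and 1.32 after it. At the right edge, the last member inside, chr6:44499161-44499633, and the first region outside, chr6:44510489-44510649, were in neither differential list.

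In the alternating part, members of opposite direction could be close together. At chr6:41374548-41375272 ubiquitylated H2A.Z was higher (0.43, FDR 0.032 in the authors' deposited table), and 474 bp further, at chr6:41375747-41376195, total H2A.Z was higher (-0.58, FDR 0.012). With 1 other member between them, chr6:41310066-41310382 (0.78) and chr6:41311946-41312170 (-0.95 in the authors' deposited table) were separated by 1563 bp. The return to total H2A.Z at chr6:41611654-41612495 (-0.51, FDR 0.0079 in the authors' deposited table) came 4825 bp after the ninth member higher in ubiquitylated H2A.Z.

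By tiles of 0.5 Mb, the share of members higher in total H2A.Z was 13.8% in the first (11 of 80) and 15.7% in the second (11 of 70), and then 23.8% (15 of 63), 32.3% (10 of 31), 22.7% (15 of 66), 20.8% (22 of 106) and 21.4% (18 of 84). The fourth tile, 42.5 to 43 Mb, was the sparsest and the most one-sided, with 28 total and 11 ubiquitylated peaks. Its 10 members higher in total H2A.Z had the largest median change of the 7 tiles, -1.01 in the authors' deposited table, where the others ranged from -0.86 to -0.70. Total peaks outnumbered ubiquitylated ones in each of the 7 tiles, in some by a few peaks: the tiles that begin at 41, 42 and 43 Mb had 60 against 57, 49 against 48 and 50 against 47. In the latter pair 15 members each were nonetheless higher in total and none were higher in ubiquitylated H2A.Z.

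**Figure D4:**
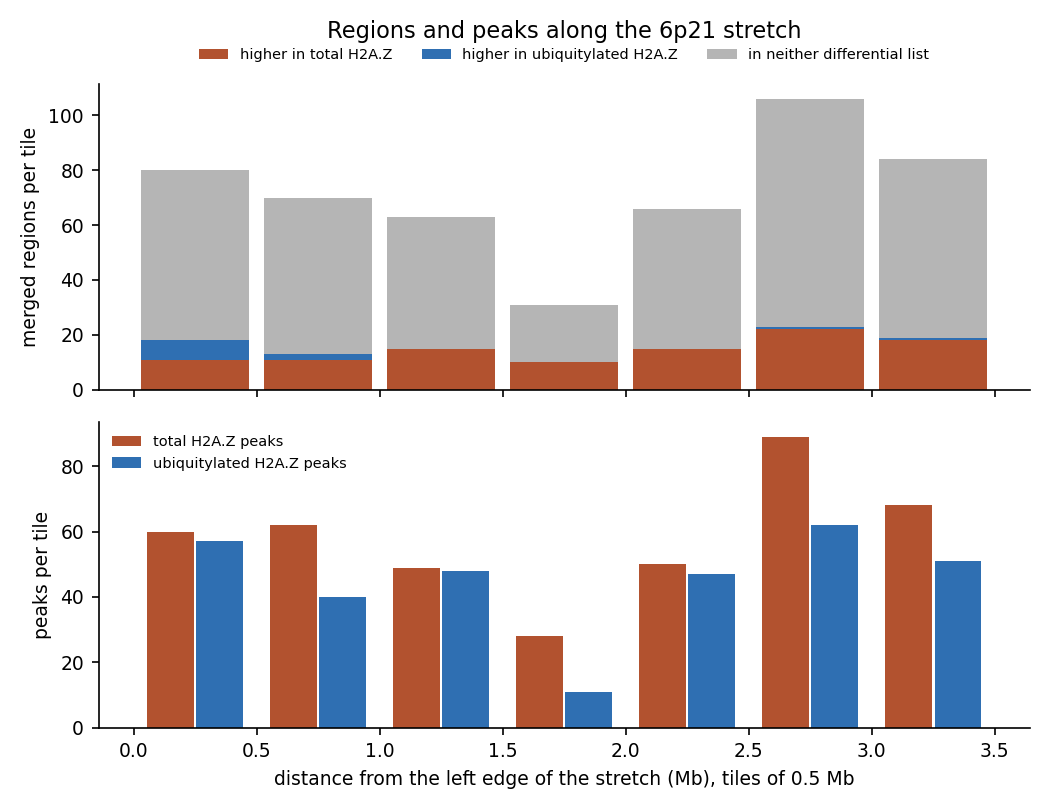
Upper panel: merged regions per 0.5 Mb tile (y axis) by their direction in the authors' deposited table; lower panel: peaks of each list per tile; x axis of both: distance from the left edge in Mb. The fourth tile has the fewest regions (31) and the sixth the most (106), and regions higher in ubiquitylated H2A.Z are seen in the first, second, sixth and seventh tiles (7, 2, 1 and 1).

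The stretch is dense in H2A.Z and its members fall into clusters. It held 143 merged regions per Mb, against 63.4 per Mb in the 3.5 Mb to its left and 34.3 per Mb in the 3.5 Mb to its right. Of 851 windows of 3.5 Mb that cover the regions of the genome, 113 held more. The median gap between neighbouring members was 1875 bp (2161 bp in the genome), and 34.5% of gaps were under 1 kb (36.6%). The longest gap, 152 kb, lay at chr6:41755254-41907195. Joining members less than 10 kb apart gave 80 clusters, of which 52 held at least 1 member higher in total H2A.Z. Single members numbered 17, of which 5 (29.4%) were higher in total H2A.Z. The share was 22.8% in the 47 clusters of 2 to 9 members and 18.4% in the 16 clusters of 10 or more. Members with both peaks showed the reverse order, 23.5%, 38.6% and 45.2%. Clusters were not formed over the rest of the genome, so there is no background by cluster size. Over all merged regions, of any spacing, 12.1% were higher in total H2A.Z and 41.9% held both peaks. Whether either order is particular to the stretch was not tested, and the shares of single members rest on 17 regions.

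The largest clusters are given beside the shares over all merged regions, 12.1% higher in total and 9.39% higher in ubiquitylated H2A.Z. Their counts are small, and their differences were not tested. The cluster at chr6:43823710-43922492 held 40 members and equal numbers of peaks, 29 of each list, and 5 of its members (12.5%) were higher in total H2A.Z. At chr6:44159163-44266068, with 39 members, 32 total and 23 ubiquitylated peaks, 12 (30.8%) had more total and 1 more ubiquitylated H2A.Z. The cluster at chr6:43214253-43276663 held 34 members with 26 peaks of each list, and 6 (17.6%) were higher in total H2A.Z. The fourth, chr6:41597696-41628066, packed 25 members into 30.4 kb, and 1 of them had more total and 2 more ubiquitylated H2A.Z.

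Several of the most repeatable sites of the stretch were in neither differential list. The lowest IDR of a ubiquitylated peak, 4.03e-07, was at chr6:41470333-41470884, where a total peak was present too (IDR 0.00524). Second came chr6:43855096-43855619 with 5.88e-07, a region without a total peak. For total H2A.Z the lowest IDR, 6.17e-06, was at chr6:43422461-43422704, with a ubiquitylated peak of IDR 9.62e-05. None of these 3 regions had a differential call, as was true of 77.4% of members and 78.5% of all merged regions. The next total peaks by IDR, at chr6:44213376-44214722 (1.81e-05) and chr6:43543049-43543733 (2.15e-05), lay in members higher in total H2A.Z. Only 768 bp separate chr6:43422461-43422704 from chr6:43423473-43423820, which is among the 7 members of lowest FDR.

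The same shares were computed for other parts of chromosome 6. The 3.5 Mb to the right of the stretch, with 120 regions, had 22.5% towards total and 3.33% towards ubiquitylated H2A.Z. The major histocompatibility complex (taken as 28.5 to 33.5 Mb, 553 regions), known for its antigen-presentation genes, had 24.8% and 6.69%. To the left (222 regions) the shares were 11.7% and 3.15%, and over the rest of chromosome 6, these neighbours and the complex included, they were 14.0% and 6.81%. The stretch was chosen on these calls, so its shares were not tested against those of the other parts. Windows of 3.5 Mb that contained 20 or more differential regions numbered 605. Of these, 15 had a lower share of differential regions on the ubiquitylated side, 115 a higher share of regions higher in total H2A.Z, and 141 more total peaks for each ubiquitylated peak.

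**Figure D5:**
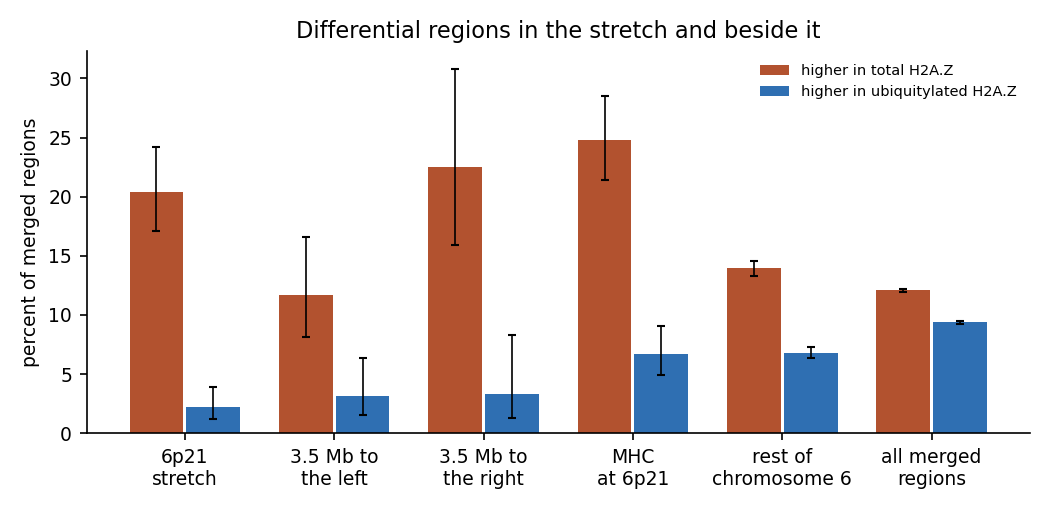
Percent of merged regions (y axis) higher in total or in ubiquitylated H2A.Z, in the 6p21 stretch and in other parts (x axis); error bars are Wilson 95% intervals, which cover counting error only. The stretch has 20.4% and 2.20%, the 3.5 Mb to its right 22.5% and 3.33%, and all merged regions 12.1% and 9.39%.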

How the data were processed

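The 6 ChIP-seq samples, in 3 groups of 2, were assigned by their titles. The submitters' processing notes name Bowtie, SAMtools, MACS2, edgeR and the hg19 build, without settings. The authors deposited 1 peak list per H2A.Z form with an irreproducible discovery rate (IDR) of at most 0.05, used here like a p-value to rank peaks (no source used here says whether it is local or global), and 2 lists of differential regions, whose FDR reaches 0.05. The fold changes deposited by the authors were taken as log2, the scale that edgeR reports. No source used here says how they were normalized, so each direction is relative to that step. The H3 samples entered no comparison here.

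Starts were raised by 1 to be 1-based. Peaks that overlapped or touched were merged, and differential regions were matched by exact coordinates. Merging was tested on simulated intervals against bedtools. The members, the lists and the rule for named regions were chosen with earlier results of these data known. The rule took all members higher in ubiquitylated H2A.Z, the extremes of FDR, fold change, width and IDR, the largest clusters and the edges, of which the text gives a selection. The other regions named are neighbours of these, chosen after their values were seen. Windows of 3.5 Mb were tiled from the start of each chromosome. No differential test was run here. Work was done in Python 3.11.15 with pandas 2.3.3, numpy 2.4.6 and scipy 1.17.1, and plots with matplotlib 3.10.9.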

Additional observations from a re-analysis of the deposited data

How the results depend on the processing

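No paired analysis was possible because both replicates of a group share a single value in these lists. Leaving out a replicate was not possible either, and gene context in hg19 was not analysed here. Of 55 recomputed values, 49 stayed within 1.5 times the count or within the order-statistic 95% interval of the median, and 6 moved beyond that. No sign could change, since counts, widths and -log10 IDR are positive and the fold changes were taken from a single direction. These limits are wide for small changes of setting. The shares over all merged regions were not recomputed, so the tally does not test the contrast with the genome. At an FDR of at most 0.01, 66 of the 500 members had more total and 3 more ubiquitylated H2A.Z. Over all 198179 merged regions these counts were 14279 and 10419. The 66 members had a median of -0.91 on the log2 scale in the authors' deposited table. With an absolute log2 fold change of at least 1, 28 members (5.60%, background 2.39%) had more total and 1 (0.200%, background 1.47%) more ubiquitylated H2A.Z. Fewer regions pass a stricter limit by construction. With peaks of an IDR of at most 0.01, the median -log10 IDR of total H2A.Z peaks was 2.70 instead of 2.50, which follows from removing peaks of high IDR. The other alternatives were edges moved by 250 kb inwards or outwards, merging of peaks up to 150 bp apart, 50% of the shorter peak in the overlap, and leaving out each tile of 0.5 Mb. Without a tile, the median log2 fold change of members higher in total H2A.Z ran from -0.85 to -0.81 and the median width from 304.5 to 317.5 bp.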
